A study of Mus musculus with 8 samples.

Results

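Chemokine receptors of the CC and CX3C families were followed in neutrophils sorted from mouse mammary tumours. The members are the genes of the deposited count table named Ccr1, Ccr2, Ccr3, Ccr7, Ccrl2 and Cx3cr1, which makes 6 of 54532 genes, and all 6 passed the filter on low counts that left 14051 genes for testing. 2208L tumour cells had been implanted orthotopically (mammary fat pad) into Balb/c mice, which were sampled once a tumour measured 1 cm across. After dissociation, flow cytometry gave an ICAM1high fraction (4 libraries) and an ICAM1low fraction (4 libraries) of tumour-infiltrating neutrophils, both from untreated animals. ICAM1 is the adhesion molecule CD54. No age, sex or further genotype of the mice is stated, nor the number of mice behind a library, and both fractions come from the same kind of tumour, so neither is a tumour-free control.

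Chemokine receptors are seven-helix receptors on the cell surface that couple to inhibitory G proteins and steer leukocytes along gradients of chemokines. In the blood, Ccr2 and Cx3cr1 mark different kinds of monocytes, and both occur on tissue macrophages or their precursors. Ccr1 is carried by neutrophils and monocytes, Ccr3 is the eotaxin receptor best known from eosinophils, and Ccr7 leads dendritic cells and lymphocytes into lymph nodes. Ccrl2 differs from the others: it binds chemerin but does not signal like a classical chemokine receptor, and it is induced on neutrophils by inflammatory stimuli.

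Library totals ran from 10328575 to 22751975 counts. Values are given as CPM (counts scaled to a common library size) after TMM scaling, which corrects library sizes for shifts in composition, and fold changes are ICAM1high over ICAM1low from the quasi-likelihood test of edgeR with p-values adjusted over all 14051 genes and a threshold of 0.05. Of all genes tested, 22.6% were called higher and 19.6% lower in ICAM1high, and with TMM scaling the median log2 fold change over all genes was 0.08. Scaling by library totals alone moved that median to 0.76, a shift of 0.68 on the log2 scale that applies to every gene below. The labelled cell type was checked against 12 core neutrophil genes, all of which were measured in both fractions. Their summed level was 9795 to 13302 CPM in ICAM1high and 42010.4 to 82982 CPM in ICAM1low. The summed level of 17 macrophage and monocyte genes was 11006 to 18068 CPM in ICAM1high and 1263 to 1934 CPM in ICAM1low, and 15 of the 17 were called higher and 0 lower. In bulk libraries, fewer cells of a type and less RNA per cell cannot be told apart. Icam1, the gene behind the sort, was at 1299.7 to 1733 CPM in ICAM1high and 607 to 1085 CPM in ICAM1low. ICAM1high replicate 1 and ICAM1low replicate 4 differed most from the other libraries of their groups, with chi-square values per degree of freedom of 81.7 to 94.2 and of 92.2 to 198.

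Of the 6 receptors, 2 were called higher in ICAM1high, 3 were called lower and Ccr7 did not pass. The groups did not overlap for these same 5 genes, beside 23.4% of all genes that lay wholly higher in ICAM1high and 18% that lay wholly lower. Without ICAM1high replicate 1 and ICAM1low replicate 4 together, the calls were again 2 higher and 3 lower. The log2 fold changes were then 4.58 for Cx3cr1, 3.18 for Ccr2, -1.85 for Ccr1, -1.75 for Ccr3 and -1.11 for Ccrl2.

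**Figure D1:**
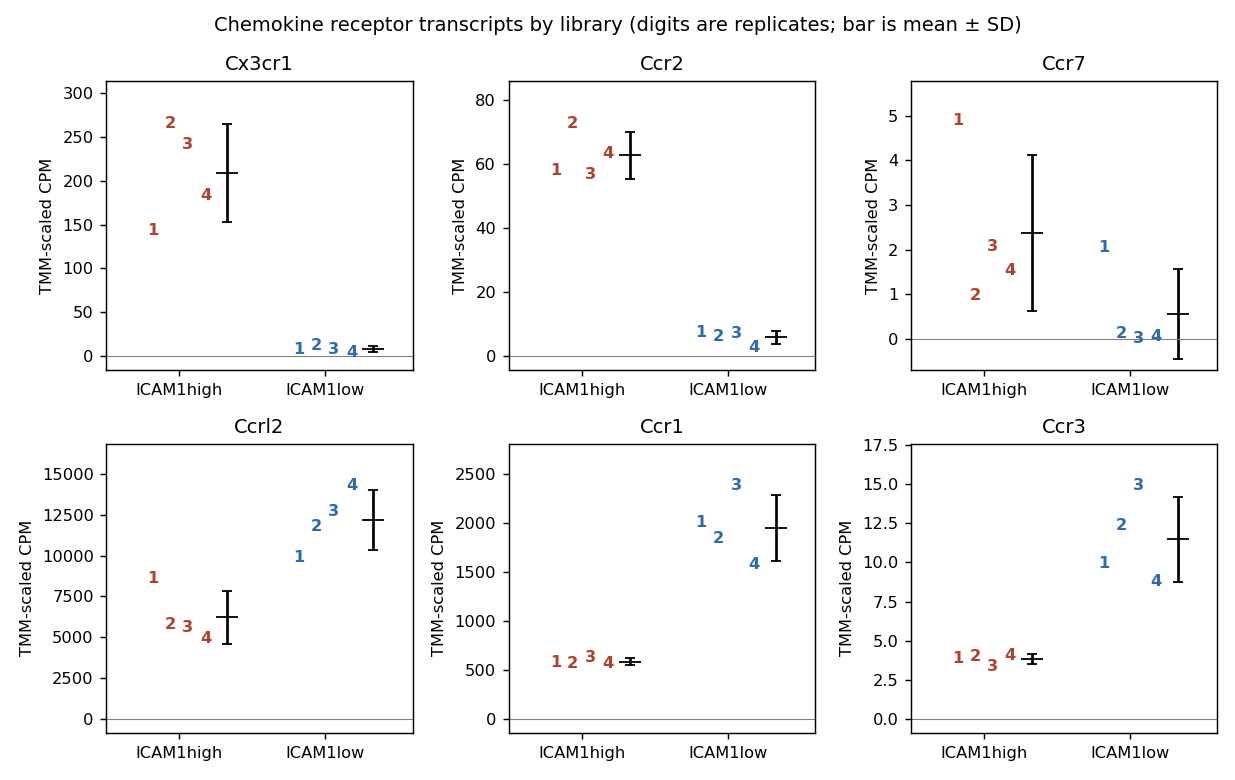
TMM-scaled CPM (vertical axes, linear) of the 6 receptors in each library; digits mark the replicate number, and the bar beside each group is its mean ± SD (n = 4). The ICAM1high libraries lie above all ICAM1low libraries for Cx3cr1 and Ccr2 and below them for Ccrl2, Ccr1 and Ccr3, whereas the groups overlap for Ccr7.

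Cx3cr1, the receptor for the membrane-bound chemokine fractalkine, rose most of the members. ICAM1high replicates 1 to 4 held 143, 266, 242 and 183 CPM, and ICAM1low replicates 1 to 4 held 7.92, 12.5, 7.82 and 3.81 CPM. The lowest ICAM1high library was therefore far above the highest ICAM1low library. The group means were 208 ± 55.7 CPM in ICAM1high and 8.02 ± 3.57 CPM in ICAM1low (SD, n = 4 each), a 25.9-fold difference. The log2 fold change was 4.70 (SE 0.36, 95% interval 3.89 to 5.50, edgeR adjusted p = 1.01e-05), which was higher than that of 99.5% of all genes tested. Cx3cr1 (ENSMUSG00000052336) lies on the minus strand of mm10 chromosome 9 from 119901616 to 120069879. This annotated span of 168264 bases encloses other genes, among them Csrnp1 with 154089 counts in all libraries together, but Csrnp1 shares 0 exonic bases with Cx3cr1 in GENCODE M21. Gm33858, on the opposite strand with 12 counts in all libraries, shares 78 exonic bases with it.

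Ccr2, the receptor through which Ccl2, Ccl7 and Ccl12 draw monocytes out of the bone marrow, rose too. It held 58.0, 72.8, 56.7 and 63.4 CPM in ICAM1high replicates 1 to 4, against 7.48, 6.24, 7.08 and 2.87 CPM in ICAM1low replicates 1 to 4. ICAM1low replicate 4 was the lowest library for both Ccr2 and Cx3cr1. The means of 62.7 ± 7.34 CPM in ICAM1high and 5.92 ± 2.10 CPM in ICAM1low (SD, n = 4 each) gave a log2 fold change of 3.41 (SE 0.28, 95% interval 2.79 to 4.02, edgeR adjusted p = 1.41e-05), or 10.6-fold. Ccr2 (ENSMUSG00000049103) spans chromosome 9, plus strand, 124101950 to 124113557. Of the 50-base words of its GENCODE transcripts 1.91% also occur in transcripts of other genes, so a small part of its reads could have been assigned elsewhere. For Cx3cr1 this share was 1.06%, and for each of the other members it was 0%.

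Both receptors moved with genes of macrophages, but not in the same measure. Within each library the ratio of Ccr2 to Cx3cr1, taken per gene length, had a mean log2 value of -2.28 ± 0.351 in ICAM1high and -0.994 ± 0.42 in ICAM1low (SD, n = 4 each, exact permutation p = 0.0286, adjusted p = 0.0477 over 15 pairs of members). All 4 ICAM1high ratios lay below all 4 ICAM1low ratios, and 0.0286 is the smallest p that 4 against 4 libraries allow. Relative to the summed counts of the macrophage and monocyte genes, Ccr2 had a mean log2 ratio of -7.77 ± 0.384 in ICAM1high and -8.06 ± 0.905 in ICAM1low, with an exact permutation p of 0.657 (adjusted p = 0.717 over 12 ratios). The same ratio for Cx3cr1 was -6.07 ± 0.616 in ICAM1high and -7.65 ± 0.911 in ICAM1low, with an exact permutation p of 0.0571 (adjusted p = 0.0761). The largest contributor to the sum was Apoe in ICAM1high, at a mean of 7555 CPM, and Csf1r in ICAM1low, at a mean of 504 CPM. Csf1r and Cd68 had log2 fold changes of 0.78 and 0.46, below the list median of 4.05. Ly6c2, picked out after its value was seen, lay below 0 at -1.11 and did not pass (edgeR adjusted p = 0.0646). Both ratios to the sum therefore depend on its make-up, which differed between the fractions. These ratios were chosen after the values had been seen; no scaling between libraries affects them. What part the macrophage transcripts have in the higher Ccr2 and Cx3cr1 was not tested.

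Ccr1 was the most abundant signalling receptor of the set and fell in ICAM1high. In mice it responds to Ccl3, Ccl5, Ccl6 and Ccl9 and is carried by neutrophils. Its level was 576, 565, 632 and 570.2 CPM in ICAM1high replicates 1 to 4, against 2002, 1839.5, 2381 and 1578 CPM in ICAM1low replicates 1 to 4. The ICAM1high libraries were close to each other, with ICAM1high replicate 3 slightly above the rest. The means were 586 ± 31.2 CPM in ICAM1high and 1950.1 ± 336 CPM in ICAM1low (SD, n = 4 each), which is 3.33-fold lower in ICAM1high, with a log2 fold change of -1.73 (SE 0.16, 95% interval -2.09 to -1.38, edgeR adjusted p = 3.1e-05). With library totals the log2 fold change was -1.05 and still passed. Ccr1 (ENSMUSG00000025804) lies on chromosome 9, minus strand, 123962124 to 123968692.

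Ccr3 fell by a similar factor at a far lower level. Its values were 3.87, 3.96, 3.33 and 4.04 CPM in ICAM1high replicates 1 to 4, from 94, 93, 69 and 53 counts. ICAM1low replicates 1 to 4 held 9.90, 12.4, 14.9 and 8.80 CPM, from 135, 202, 259 and 141 counts. In TMM-scaled CPM the groups did not overlap. The library with the most Ccr3 in ICAM1low, replicate 3, was also the library with the most Ccr1. The means were 3.80 ± 0.321 CPM in ICAM1high and 11.5 ± 2.71 CPM in ICAM1low (SD, n = 4 each), 3.02-fold lower in ICAM1high, with a log2 fold change of -1.60 (SE 0.23, 95% interval -2.10 to -1.09, edgeR adjusted p = 0.000424). With library totals it was -0.92 and still passed (adjusted p = 0.0103). Ccr3 (ENSMUSG00000035448) lies on chromosome 9, plus strand, 124021972 to 124031689.

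Eosinophils are the cells best known for Ccr3, and their defining genes were at or near 0: Epx, the eosinophil peroxidase, and Prg2, the major basic protein, had 0 counts in every ICAM1high library, and no ICAM1low library held more than 5 counts of either. Ear1 and Ear6 had 0 counts in all 8 libraries. A count of 0 allows up to 3 counts, or 0.123 to 0.229 CPM depending on the library, counting error only. Of 9 eosinophil genes 3 passed the filter, and 2 were called higher in ICAM1high with TMM scaling and with library totals, but 1 with RLE or upper-quartile scaling. Siglecf, also known from other myeloid cells, was called higher under each of these scalings, with a log2 fold change of 0.96 (edgeR adjusted p = 0.0016). The summed eosinophil list was 117 to 168 CPM in ICAM1high and 58.3 to 84.9 CPM in ICAM1low.

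The 2 receptors fell together. Per gene length, the log2 ratio of Ccr1 to Ccr3 was 7.42, 7.36, 7.77 and 7.34 in ICAM1high replicates 1 to 4, against 7.86, 7.42, 7.53 and 7.69 in ICAM1low replicates 1 to 4. These ranges overlap, the difference of the means was -0.16, and the exact permutation p was 0.257 (adjusted p = 0.297 over 15 pairs), which does not show that the ratio is equal in the fractions. Relative to the summed core neutrophil genes, Ccr1 had a mean log2 ratio of -4.28 ± 0.219 in ICAM1high and -4.76 ± 0.642 in ICAM1low (SD, n = 4 each, exact permutation p = 0.143, adjusted p = 0.172 over 12 ratios). The ratio of Ccr3 to that sum was -11.5 ± 0.204 in ICAM1high and -12.2 ± 0.696 in ICAM1low (exact permutation p = 0.0571, adjusted p = 0.0761). Both ratios were lowest in ICAM1low replicate 4, the library with the most core neutrophil transcript. Neither ratio passed, which does not show that it is equal in the fractions. The decline of Ccr1 and Ccr3 had the same direction as that of the core neutrophil genes. Of these, 12 of 12 were called lower with a median log2 fold change of -2.15 (11 of 12 with library totals). Within ICAM1low, replicate 4 held the most core neutrophil transcript but the least Ccr1 (1578 CPM) and Ccr3 (8.80 CPM). The part of the core neutrophil genes in the decline was not tested.

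Ccr1 and Ccr3 lie in the chemokine receptor cluster of chromosome 9 together with Ccr2, which rose, and the interval from Ccr1 to Ccr2 measures 151 kb. The sequences upstream of Ccr1 and Ccr3 are shown because these genes of the same cluster fell together. They are the 250 bases before the RefSeq start site on GRCm38.p6, read 5′ to 3′ on the strand of the gene, with matches to a motif in capitals.
Ccr1, chr9:123968693-123968942, minus strand: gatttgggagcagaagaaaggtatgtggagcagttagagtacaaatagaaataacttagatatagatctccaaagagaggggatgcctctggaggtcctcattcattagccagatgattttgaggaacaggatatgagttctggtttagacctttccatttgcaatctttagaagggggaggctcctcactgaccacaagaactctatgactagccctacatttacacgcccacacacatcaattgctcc
Ccr3, chr9:124021721-124021970, plus strand: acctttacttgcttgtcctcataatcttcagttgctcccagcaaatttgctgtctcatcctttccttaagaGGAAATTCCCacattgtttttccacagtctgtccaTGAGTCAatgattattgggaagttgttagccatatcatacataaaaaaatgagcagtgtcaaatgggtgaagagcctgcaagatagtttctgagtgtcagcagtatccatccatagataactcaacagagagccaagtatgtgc
Motifs were searched on both strands. The letters were GAGGAAG for PU.1 and other ETS factors, and TTGCNNAA for C/EBP. For AP-1 they were TGANTCA. The TATA box was searched as TATAAA. NF-kB was searched by a fixed form of letters that differs from its usual consensus, and the usual consensus was not searched. The Ccr3 window held the AP-1 letters at 144 to 138 bases and the NF-kB letters, on the opposite strand, at 179 to 170 bases before the start site, with no overlap between them. Of 32851 promoter windows of the same length, 6.75% held the AP-1 letters and 1.41% the NF-kB letters. None of the 5 motifs matched in the Ccr1 window, which says only that the letters searched are not in this stretch. For NF-kB this holds for the form searched alone, so it does not show that Ccr1 and Ccr3 differ in NF-kB sites. The C/EBP, ETS and TATA letters occur in 9.56%, 10.6% and 12.4% of all windows.

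**Figure D2:**
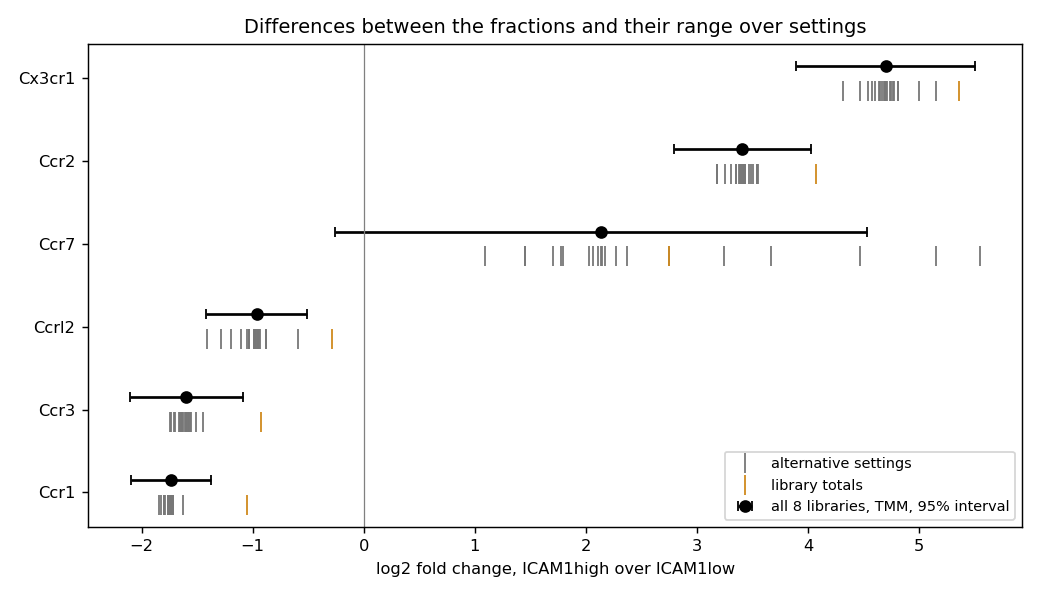
Log2 fold change of each receptor, ICAM1high over ICAM1low (horizontal axis); black points are the values from all 8 libraries with 95% intervals, and ticks below each point are the values under alternative settings, with scaling by library totals in orange. Cx3cr1 and Ccr2 lie above 0 and Ccr1 and Ccr3 below 0 under each setting run, while Ccrl2 reaches -0.28 under library totals and Ccr7 spreads from 1.09 to 5.55.

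Ccrl2 was by far the most abundant receptor of the set in both fractions, and its fall in ICAM1high depended on the scaling. It held 8599, 5806, 5602 and 4915 CPM in ICAM1high replicates 1 to 4, against 9906, 11785, 12689 and 14271 CPM in ICAM1low replicates 1 to 4. ICAM1high replicate 1 came nearest to the ICAM1low libraries, without reaching them in TMM-scaled CPM. The means of 6230.5 ± 1624 CPM in ICAM1high and 12162.5 ± 1822 CPM in ICAM1low (SD, n = 4 each) differed 1.95-fold, with a log2 fold change of -0.97 (SE 0.21, 95% interval -1.42 to -0.51, edgeR adjusted p = 0.00392). With library totals the value was -0.28 (adjusted p = 0.172) and did not pass. Ccrl2 (ENSMUSG00000043953) lies on chromosome 9, minus strand, 111054486 to 111057519, outside the cluster that holds Ccr1, Ccr2 and Ccr3.

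Within libraries, Ccrl2 was higher in ICAM1high relative to the summed core neutrophil genes, a sum whose largest contributor was Csf3r in ICAM1high, at a mean of 2704 CPM, and S100a9 in ICAM1low, at a mean of 19178.5 CPM. Single genes of that list differed in this: Mmp9, chosen after its value was seen, had a log2 fold change of -0.56, nearer to 0 than that of Ccrl2. The log2 ratio of Ccrl2 to the sum was -0.629, -0.754, -0.923 and -1.28 in ICAM1high replicates 1 to 4, against -2.08, -1.88, -1.96 and -2.54 in ICAM1low replicates 1 to 4. All ICAM1high ratios were above all ICAM1low ratios, with a difference of 1.22 between the means (exact permutation p = 0.0286, adjusted p = 0.049 over 12 ratios). The log2 ratio of Ccr1 to Ccrl2 per length was -3.50 ± 0.364 in ICAM1high and -2.77 ± 0.388 in ICAM1low (SD, n = 4 each), and this difference of -0.73 did not pass (exact permutation p = 0.0857, adjusted p = 0.107 over 15 pairs).

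**Figure D3:**
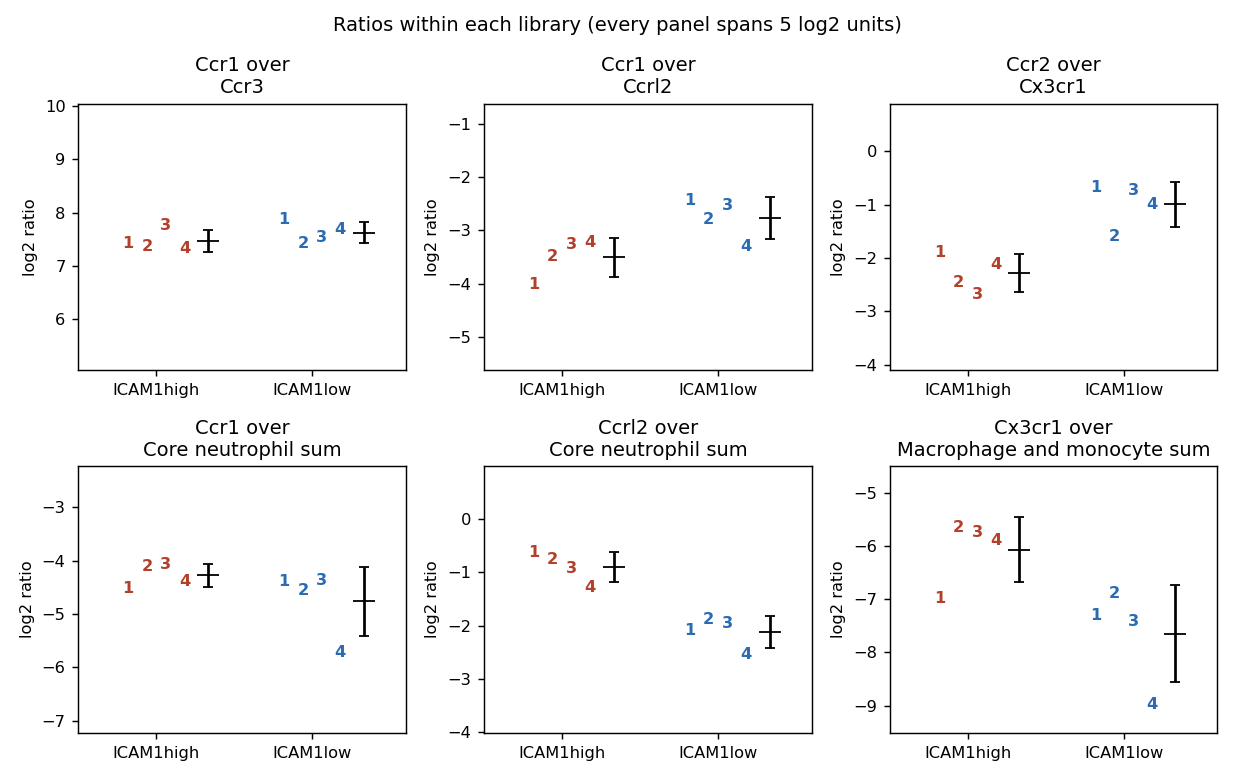
Log2 ratios within each library (vertical axes, each spanning 5 log2 units) of receptor pairs, taken per gene length, and of receptors to the summed counts of core neutrophil or macrophage and monocyte genes; digits mark replicates and bars give mean ± SD (n = 4). The groups overlap for Ccr1 over Ccr3 and are apart for Ccr2 over Cx3cr1 and for Ccrl2 over the core neutrophil sum.

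Cmklr1, the signalling receptor for chemerin to which Ccrl2 can present that ligand, was the one gene called higher in a list of 18 other chemokine and atypical receptors. It averaged 39.9 ± 12.1 CPM in ICAM1high and 2.5 ± 0.479 CPM in ICAM1low (SD, n = 4 each), with a log2 fold change of 3.99 (SE 0.29, edgeR adjusted p = 6.56e-06). Of the 18, 8 passed the filter, 1 was called higher, 4 lower and 3 did not pass, with a median log2 fold change of -0.94 beside 0.08 over all genes. The 4 that fell were Cxcr1 at -2.88, Cxcr5 at -2.09, Cxcr2, the main neutrophil receptor for CXC chemokines, at -1.71, and the scavenging receptor Ackr3 at -1.33. The 3 that did not pass were Cxcr4 at -0.55 (edgeR adjusted p = 0.0759), Cxcr3 at 0.54 and Cxcr6 at 0.47. With RLE scaling Cxcr4 passed too (-0.61, edgeR adjusted p = 0.049), which made it 1 higher and 5 lower. With library totals Cxcr3 was called higher as well and Ackr3 no longer passed, which made it 2 higher and 3 lower. The other 10 receptors of the list, among them Ccr4, Ccr6, Ccr8, Ccr9 and Ccr10, had at most 23 counts in any library.

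Ccr7 was low throughout and did not pass the test. It had 119, 23, 43 and 20 counts in ICAM1high replicates 1 to 4, or 4.90, 0.979, 2.08 and 1.53 CPM. In ICAM1low replicates 1 to 4 it had 28, 2, 0 and 1 counts, or 2.05, 0.122, 0 and 0.0624 CPM, where a count of 0 allows up to 0.173 CPM in replicate 3. Replicate 1 was the highest library in both fractions, and ICAM1low replicate 1 lay above ICAM1high replicates 2 and 4, so the groups overlapped. The means were 2.37 ± 1.74 CPM in ICAM1high and 0.560 ± 0.998 CPM in ICAM1low (SD, n = 4 each), with a log2 fold change of 2.14 (SE 1.08, 95% interval -0.26 to 4.53, edgeR adjusted p = 0.137). Without ICAM1low replicate 1 the log2 fold change was 5.15 (adjusted p = 0.00236), without ICAM1high replicate 1 it was 1.45 (adjusted p = 0.341), without ICAM1high replicate 1 and ICAM1low replicate 4 together it was 1.09 (adjusted p = 0.396), and without both libraries numbered 1, a choice made after the data were seen, it was 4.47 (adjusted p = 0.0035). With the replicate block it was 3.24 (adjusted p = 0.0444), and with library totals 2.75 (adjusted p = 0.0492). Ccr7 (ENSMUSG00000037944) lies on chromosome 11, minus strand, 99144196 to 99155077.

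Summed over a list, genes of B cells, which can carry Ccr7, were highest in the same library of each fraction as Ccr7. The summed level of 7 B cell genes was 27.3, 4.98, 6.18 and 5.80 CPM in ICAM1high replicates 1 to 4. In ICAM1low replicates 1 to 4 it was 7.78, 1.47, 1.27 and 3.31 CPM, so that replicate 1 was highest in each fraction. Single genes differed: Cd79a and Fcrla were highest in ICAM1low replicate 4 (1.37 CPM each), and Ebf1 in ICAM1high replicate 4 (0.686 CPM). Otherwise each gene of the list was highest in replicate 1 of its fraction. The 11 T and NK cell genes summed to 36.3 CPM in ICAM1high replicate 1 and 11.2 to 14.4 CPM in the other ICAM1high libraries. In ICAM1low their sum was 15.7 to 25.0 CPM, highest in replicate 4, where Cd3d alone held 20.5 CPM. Cd3d was called lower (-1.27, edgeR adjusted p = 0.00403) and Cd5 higher (1.47, edgeR adjusted p = 0.00835). Among the ICAM1low libraries, Cd3d, Cd2 and Trac were highest in replicate 4. Cd3e, Cd3g, Cd5, Lck, Trbc2, Ncr1 and Nkg7 were highest in replicate 1, most of them near the floor. The B cell gene Cd22 was among the 3 genes whose profile over the 8 libraries was most like that of Ccr7. This likeness was far looser than those found for the other members. Of 8 genes of migratory dendritic cells, the other cells known for Ccr7, 6 passed the filter, and their sum was 20.7 to 34.7 CPM in ICAM1high and 43.8 to 61.0 CPM in ICAM1low. With TMM scaling 0 of them were called higher and 3 lower, whereas with library totals 1 was called higher and 0 lower. What part lymphocyte or dendritic cell transcripts have in the Ccr7 counts was not tested.

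**Figure D4:**
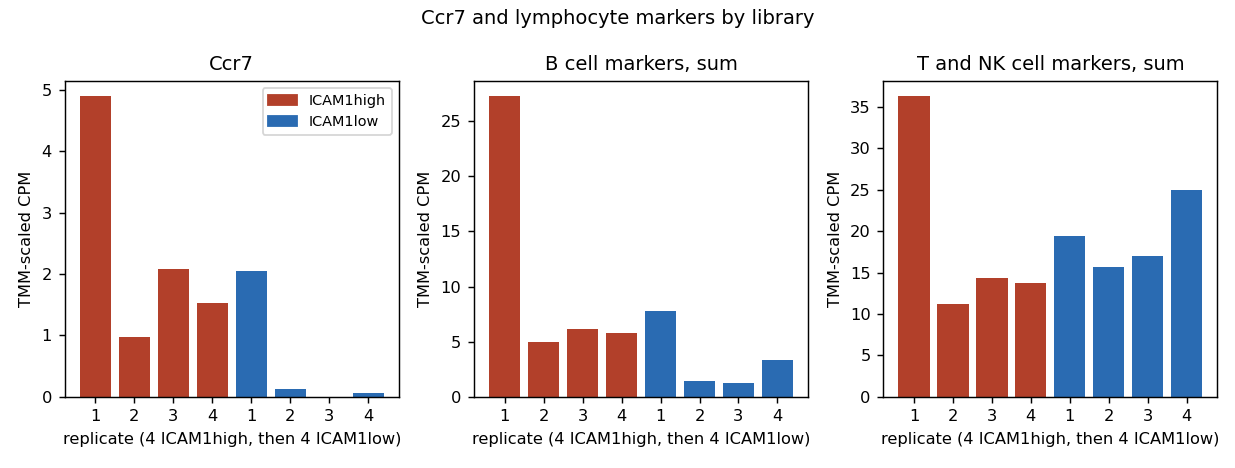
TMM-scaled CPM (vertical axes from 0) of Ccr7, of the summed B cell genes and of the summed T and NK cell genes in each library, 4 ICAM1high replicates in red followed by 4 ICAM1low replicates in blue. Replicate 1 has the highest Ccr7 and B cell level in each fraction, at 4.90 and 27.3 CPM in ICAM1high and 2.05 and 7.78 CPM in ICAM1low.

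Levels of different receptors were compared per gene length, as TPM computed from the counts and deposited lengths without TMM scaling. In ICAM1high the order was Ccrl2 with a mean of 8637 TPM, Ccr1 with 765 TPM, Cx3cr1 with 175 TPM, Ccr2 with 34.5 TPM, Ccr3 with 4.29 TPM and Ccr7 with 4.10 TPM. Ranges of neighbours in that order did not overlap except for Ccr3 and Ccr7. In ICAM1low Ccrl2 with 9318 TPM and Ccr1 with 1416 TPM came first again, followed by Ccr3 with 7.22 TPM, Cx3cr1 with 3.80 TPM, Ccr2 with 1.86 TPM and Ccr7 with 0.664 TPM, and from Ccr3 downwards each neighbouring pair overlapped. Ccrl2 made up 89.7 ± 2.30% of the 6 receptors' summed TPM in ICAM1high and 86.9 ± 2.88% in ICAM1low (SD, n = 4 each). Cx3cr1 and Ccr2 took 1.83 ± 0.656% and 0.363 ± 0.0918% in ICAM1high, against 0.0342 ± 0.0166% and 0.0169 ± 0.00724% in ICAM1low.

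The genes with the profile most like that of each receptor were found by the root-mean-square difference of centred log2 CPM over the 8 libraries among 7591 protein-coding genes. Themis2 was nearest to Ccr1 (0.0565, beside a median of 0.947 over all candidates), followed by Zfp821 and Lmnb1. Ifit1bl2, Alpl and Serinc2 were nearest to Ccr3 (0.128 to 0.158). Irf7, H3f3b and Spsb2 were nearest to Ccrl2 (0.0833 to 0.091). Cx3cr1 was nearest to the integrin gene Itga9 (0.246), followed by Gatm and the mannose receptor gene Mrc1. Ccr2 was nearest to Tbxas1 (0.281), Ttyh2 and Mdfic, and Ccr7 to Rasal3 (0.936), Cd22 and H2-DMb1, a far looser likeness than for the other members.

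By number of genes, ligands of the receptors were mostly higher in ICAM1high where they could be measured. Of 14 ligand genes 9 passed the filter, of which 6 were called higher, 1 lower and 2 did not pass, with a median log2 fold change of 2.32 beside 0.08 over all genes. These counts were the same with library totals. The summed level of the 14 genes overlapped, at 1340 to 3066 CPM in ICAM1high and 1290 to 3695 CPM in ICAM1low. Ccl3, the most abundant of them and picked out after its value was seen, did not pass (-0.25, edgeR adjusted p = 0.626). Ccl12, a ligand of Ccr2 in mice, averaged 29.6 ± 9.32 CPM in ICAM1high and 2.25 ± 0.739 CPM in ICAM1low (SD, n = 4 each), with a log2 fold change of 3.71 (edgeR adjusted p = 1.77e-05). Ccl9, a ligand of Ccr1, was at 71.7 ± 20.9 CPM in ICAM1high and 14.4 ± 7.29 CPM in ICAM1low, with a log2 fold change of 2.32 (edgeR adjusted p = 0.000446). Cx3cl1, which encodes fractalkine, was the one called lower, at 5.73 ± 1.14 CPM in ICAM1high and 17.0 ± 3.66 CPM in ICAM1low. Its log2 fold change was -1.57 (edgeR adjusted p = 0.000505). Thus the transcripts of the ligand and the receptor of the CX3C pair moved in opposite directions in these bulk libraries. Of 6 epithelial tumour genes 5 passed the filter, of which 0 were called higher, 3 lower and 2 did not pass. The summed level of the 6 was 111 to 163 CPM in ICAM1high and 257 to 459 CPM in ICAM1low. What part tumour cell transcripts have in the Cx3cl1 counts was not tested. Of the Ccr7 ligands, picked out after their values were seen, Ccl19 had 0 counts in all libraries and Ccl21a had at most 1.

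Genes that carry or end the signal of chemokine receptors were called in both directions. Of 41 listed symbols 39 matched a gene with counts here, and 38 of these genes passed the filter. With TMM scaling 4 were called higher and 12 lower, with a median log2 fold change of -0.32. With library totals, in contrast, 13 were called higher and 1 lower, with a median of 0.36. The median over all genes moved alike, to 0.76 with library totals, so the list lay below it under both scalings. Regulators that end receptor signals were found in both directions. Grk3, a kinase that desensitises receptors, averaged 38.3 ± 11.1 CPM in ICAM1high and 1.99 ± 0.447 CPM in ICAM1low (SD, n = 4 each), with a log2 fold change of 4.26 (edgeR adjusted p = 5.02e-06). Rgs1, which speeds the inactivation of G proteins, averaged 298 ± 31.8 CPM in ICAM1high and 31.6 ± 10.1 CPM in ICAM1low, with a log2 fold change of 3.24 (edgeR adjusted p = 6.34e-06). Both were higher under library totals as well. Gnai3, an inhibitory G protein subunit, at -0.98 and the kinase gene Fgr at -0.94 had the smallest adjusted p among those that fell, and neither passed with library totals (-0.29 and -0.26). Grk5, a kinase of the same family as Grk3 and picked out after its value was seen, fell (-1.45, edgeR adjusted p = 0.000534) and was the 1 listed gene called lower with library totals (-0.76, adjusted p = 0.0147). Grk2 at -0.65 and Rgs14 at -0.50, also picked out afterwards, were called lower with TMM scaling but not with library totals.

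The 5 members on chromosome 9 lie within 13.1 Mb that hold 113 other protein-coding genes, and 74 of these were tested. Of the 74, 25.7% were called higher and 27% lower, with a median log2 fold change of 0.15, so the opposite directions of Ccr2 and Cx3cr1 on one side and Ccr1, Ccr3 and Ccrl2 on the other occurred in a stretch with calls in both directions.

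The numbers in the library names run in one series for replicates 1 and 2 and in another for replicates 3 and 4. The ICAM1high and ICAM1low libraries of the same replicate share a number, and the labels do not say what the numbers mean. Within replicates 1 and 2 alone, the log2 fold changes were 4.32 for Cx3cr1, 3.25 for Ccr2, -1.75 for Ccr1, -1.51 for Ccr3, -0.59 for Ccrl2 and 1.45 for Ccr7. Within replicates 3 and 4 alone they were 5.15 for Cx3cr1, 3.55 for Ccr2, -1.76 for Ccr1, -1.73 for Ccr3, -1.41 for Ccrl2 and 5.55 for Ccr7. In replicates 1 and 2 Ccrl2 (adjusted p = 0.212) and Ccr7 (adjusted p = 0.302) did not pass, and in replicates 3 and 4 all 6 members passed, Ccr7 with an adjusted p of 0.0285. The interaction of fraction and library number was called by edgeR for 0 of 14051 genes (0%), with 1606 genes at an unadjusted p under 0.05. Among the members its smallest adjusted p values were 0.417 for Ccrl2 and 0.423 for Ccr7.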

How the data were processed

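Messenger RNA sequencing was run on 8 libraries of sorted tumour neutrophils, 4 ICAM1high and 4 ICAM1low, each from 100 ng of total RNA per the labels. The authors deposited 1 table of whole-number read counts per gene with no normalization, and its gene length in bases is a deposited annotation of another kind, used for levels per length. The submitters' processing notes name HISAT2, an aligner, and the build mm10. The aligner version, counting tool and strand setting: not given in the sources used here. The titles call the replicates biological, yet no label links a library to an animal of its own, and p-values therefore reflect the spread between these libraries, which may be technical. Counts of replicates differed by far more than sampling noise (chi-square per degree of freedom 11.4 to 198).

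After filterByExpr by group and TMM normalization, edgeR 4.0.16 (quasi-likelihood test, R 4.3.3) compared the fractions. Benjamini-Hochberg adjustment covered all 14051 genes, with a threshold of 0.05. The standard error of a log2 fold change was its size over the root of its F value. Ratios within libraries used counts plus 0.5 and exact two-sided permutation tests. Totals of 10.3 to 22.8 M counts limit the precision of Ccr7, which had 0 to 119 counts in a library. The main comparison is unpaired, because no label says whether same-numbered libraries come from the same tumour. Their residuals correlated at -0.566, 0.21, 0.184 and -0.3, which cannot decide this. On simulated counts with known changes the test was checked before use. Members and lists were chosen with earlier results of these data known. Named from each list were up to 2 genes a direction with the smallest adjusted p at an average log2 CPM of at least 1, every tested receptor, and the 3 nearest profiles of each member at an average log2 CPM of at least 3. Positions matched GENCODE M21 for all 6 members. Upstream sequences are from RefSeq, build GRCm38.p6, where 5 of the 6 members matched by symbol. Protein sequences were not used here.

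Alternatives were DESeq2 1.42.0, limma-voom (limma 3.58.1), a replicate block, other scalings and filters, robust dispersion, each series of library names alone or as a covariate, and leaving out libraries. Leaving out both libraries numbered 1 and the ratios within libraries were added after the data were seen.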

Additional observations from a re-analysis of the deposited data

Results flagged for a closer look

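Each member was checked for a library far from the other 3 of its group, 12 groups in all, and chance alone marks about 1 in 20 such groups. Ccr7 in ICAM1low replicate 1 was at 2.05 CPM, against 0 to 0.122 CPM in the other ICAM1low libraries. That library also had the most summed B cell transcript of its fraction, 7.78 CPM against 1.27 to 3.31 CPM, and the part of B cells in it was not tested. Ccr1 in ICAM1high replicate 3 was at 632 CPM, against 565 to 576 CPM in the other ICAM1high libraries, and its log2 fold change without this library was -1.79.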

How the results depend on the processing

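Over 22 alternatives, Cx3cr1 (4.32 to 5.36), Ccr2 (3.18 to 4.08), Ccr1 (-1.85 to -1.05) and Ccr3 (-1.75 to -0.92) kept their direction and passed each time, the replicate block included. Ccrl2 did not pass with library totals (-0.28) or in replicates 1 and 2 alone (-0.59), and ranged from -1.20 to -0.88 with 1 library left out. Ccr7 passed with library totals (2.75), limma-voom (3.66), the replicate block (3.24), replicates 3 and 4 alone (5.55) and without both libraries numbered 1 (4.47), ranged from 1.45 to 5.15 with 1 library left out, where it passed without ICAM1low replicate 1 (5.15) but not without any other single library, and was not tested under the filter of 50 counts in 4 libraries. The replicate block changed no other call among the members. All genes called higher and lower numbered 3172 and 2748; with library totals they were 6818 and 839 (89% higher), in replicates 1 and 2 alone 1708 and 1416, and in replicates 3 and 4 alone 1658 and 1604, where fewer libraries enter; with 1 library left out they ran from 2345 to 3403 and from 2157 to 2927. The cause of the Ccrl2 and Ccr7 changes was not tested. Depth limits Ccr7, with 0 to 28 counts in ICAM1low.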
